A study of Mus musculus with 4 samples.

Results

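Of 7 interferon-inducible mouse genes, 6 were listed as changed in the ovary and the remaining 1 in the uterus when pregnant mice were kept in low oxygen. The 7 were Isg15, Oas2, Ifi44, Ifi44l, Ifi202b, Ifi206 and Apol9b, chosen by name from the 1696 genes of the authors' deposited tables because those tables list them, so the fold changes below are a description and carry no test. In the ovary, 5 of them were lower in hypoxia and Ifi202b was higher. In the uterus, Ifi44l was higher. None of the 7 was listed in both tissues (0 genes). Of the 1696 genes, only 61 were listed in both, so 0 of 7 says little about these genes.

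The study asked how forced low oxygen around the implantation window alters the maternal reproductive organs. The groups were ovary from hypoxic mice and ovary from normoxic control mice, and uterus from hypoxic mice and uterus from normoxic control mice. All mice were pregnant, hypoxia was applied at 72 hours of gestation counted from fertilization, and tissue was taken at embryonic day 3.5. Each group is 1 library made from a pool of 3 samples, so that no spread between animals can be estimated and no difference here has a replicate check. The labels used here give no strain, maternal age or oxygen level.

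Type I interferons are secreted cytokines that bind cell-surface receptors and, through the kinases Jak1 and Tyk2, activate a complex of transcription factors that includes Irf9. That complex binds a short repeat of GAAA letters, the interferon-stimulated response element, before a set of target genes. The products of those genes include antiviral enzymes, ubiquitin-like modifiers and DNA-binding proteins. In ruminants, interferon tau from the conceptus raises such genes in the endometrium and corpus luteum in early pregnancy. Pooled tissue RNA cannot tell fewer cells that express a gene from less RNA per cell.

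The promoters are shown first because the response element is the feature that interferon targets are known for. Sequence was not used to choose the genes, but they were chosen as interferon-inducible, so the element was likely in advance. Its count is a description alone. RefSeq promoter windows on GRCm38.p6 were matched by symbol for 6 of the 7 members. The 250 bases before each gene start are given 5′ to 3′ on the gene's strand. Capitals mark the main motif, which is GAAA, any 2 bases and GAAA again, on either strand. In Ifi44 alone they mark the looser motif, which is GAAA, any 3 bases and AAA, again on either strand. The motifs overlap, since every main match is also a looser match.
Isg15, chr4:156200819-156201068, minus strand: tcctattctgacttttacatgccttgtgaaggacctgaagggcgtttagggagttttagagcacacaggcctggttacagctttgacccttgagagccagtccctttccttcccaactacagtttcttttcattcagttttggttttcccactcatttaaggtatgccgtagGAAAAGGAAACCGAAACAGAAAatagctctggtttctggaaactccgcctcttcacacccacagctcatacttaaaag
Apol9b, chr15:77728822-77729071, plus strand: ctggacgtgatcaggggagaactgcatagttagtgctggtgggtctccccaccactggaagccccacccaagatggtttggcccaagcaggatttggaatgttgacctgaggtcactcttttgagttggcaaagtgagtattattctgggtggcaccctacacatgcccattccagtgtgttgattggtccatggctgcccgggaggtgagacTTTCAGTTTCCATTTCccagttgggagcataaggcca
Ifi206, chr1:173491319-173491568, minus strand: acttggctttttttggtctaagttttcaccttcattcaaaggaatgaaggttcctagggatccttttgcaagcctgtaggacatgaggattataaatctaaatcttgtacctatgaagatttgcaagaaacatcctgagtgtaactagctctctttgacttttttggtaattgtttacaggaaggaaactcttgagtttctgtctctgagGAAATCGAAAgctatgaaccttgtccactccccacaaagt
Ifi44, chr3:151749911-151750160, minus strand: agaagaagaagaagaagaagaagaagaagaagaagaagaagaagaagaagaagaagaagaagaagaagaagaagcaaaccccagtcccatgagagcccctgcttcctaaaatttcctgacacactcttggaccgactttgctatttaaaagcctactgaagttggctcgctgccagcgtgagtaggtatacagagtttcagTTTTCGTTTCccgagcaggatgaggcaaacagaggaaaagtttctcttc
Ifi202b, chr1:173982845-173983094, minus strand: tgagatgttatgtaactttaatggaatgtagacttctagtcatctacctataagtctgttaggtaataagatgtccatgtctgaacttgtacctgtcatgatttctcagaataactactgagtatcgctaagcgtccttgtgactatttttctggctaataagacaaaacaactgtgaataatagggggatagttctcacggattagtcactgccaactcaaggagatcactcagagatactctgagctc
Ifi44l, chr3:151762892-151763141, minus strand: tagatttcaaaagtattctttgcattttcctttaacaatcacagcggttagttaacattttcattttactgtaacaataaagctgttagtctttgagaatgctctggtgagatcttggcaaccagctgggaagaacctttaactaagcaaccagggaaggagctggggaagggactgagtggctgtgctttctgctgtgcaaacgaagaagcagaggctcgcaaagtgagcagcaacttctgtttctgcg

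The main motif stood in 3 of the 6 windows, those of Isg15, Apol9b and Ifi206. Over all RefSeq promoters cut to the same length, 3.46% of 27025 genes held it. Isg15 had 3 overlapping matches, the first beginning 78 bases before the gene start, and Apol9b had 2, the first at 37 bases. Isg15 also held the looser motif alone at 112 bases, not shown in capitals. Ifi206 had 1 match, at 40 bases. Ifi44 held no main match and a looser match at 49 bases, and 12.6% of genes held that form. No match to either motif stood in the windows of Ifi202b and Ifi44l, the members listed as higher, which says only that these letters are not in those windows. The 3 members with the main motif were all listed as lower in the ovary, as was Ifi44. Oas2, also lower, had no window, and from 6 windows no link between the motif and the direction can be read. For Apol9b a further RefSeq start gave the same letters at 86 bases.

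**Figure D1:**
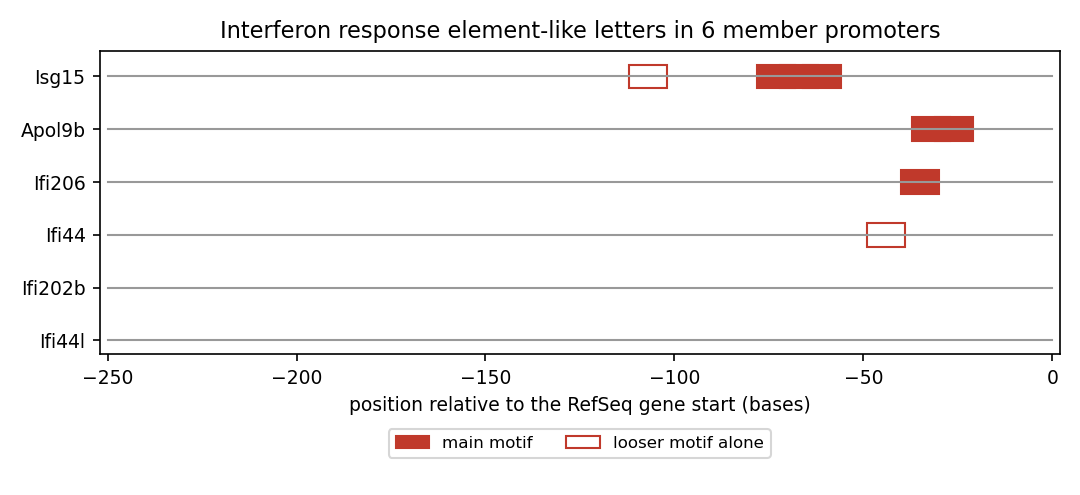
Positions of matches to the main motif (GAAA, any 2 bases, GAAA; filled boxes) and to the looser motif alone (open boxes) in the 250 bases before the RefSeq start of 6 member genes; the x axis is the position in bases relative to the start. Isg15, Apol9b and Ifi206 have filled boxes, Isg15 and Ifi44 each have an open box, and Ifi202b and Ifi44l have none.

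The authors' deposited tables give 1 log2 fold change per gene and list genes with an absolute value of at least 2, which is a ratio of 4. Positive values are taken as higher in hypoxia, a sign the tables do not state, so every direction here turns round if the ratio was formed the other way. Divided by a factor common to a tissue, 0.952 in the ovary and 0.995 in the uterus, each ratio was a ratio of whole numbers to within a relative error of 5e-14. These whole numbers are called terms, and each was read as a read count plus 1, an inference that no source states. They are in lowest form, so the counts behind them may be larger. The tables listed 421 ovary genes as lower, which is 0.758% of the 55536 annotated genes, and 433 as higher, which is 0.78%. In the uterus 412 genes were lower, which is 0.742%, and 491 were higher, which is 0.884%. Since the members were chosen from these lists, nothing can be read from their count of 5 lower and 1 higher against those shares.

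Isg15 encodes a ubiquitin-like protein that is joined to other proteins after interferon exposure. It had a term of 95 in the hypoxia ovary library, against 377 in the normoxia ovary library. The authors' deposited table gives a log2 fold change of -2.06, a hypoxia over normoxia ratio of 0.240 with a 95% counting interval of 0.188 to 0.299. Its transcript, from a gene on chromosome 4 from 156199424 to 156200818 (GRCm38), was 756 bases long, and 3.96% of its 50-base stretches also stood in 1 other annotated gene.

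Oas2 encodes an oligoadenylate synthetase, an enzyme that senses double-stranded RNA in antiviral defence. It had a term of 373 in the hypoxia ovary library and 1468 in the normoxia ovary library, the largest terms of the 7 members and so the narrowest interval. The ratio was 0.242, with a counting interval of 0.215 to 0.271, and the authors' deposited table gives -2.05. Oas2 lies on chromosome 5 from 120730333 to 120749853, at one end of a stretch that holds 10 Oas genes. None of the other Oas genes there was listed in either tissue, Oas3 and Oas1a included. Of the 12 genes of the Oas list, 1 was listed in the ovary and 0 in the uterus.

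Ifi44 and Ifi44l are neighbouring, related genes that rise with interferon. Ifi44 had a term of 101 in the hypoxia ovary library, against 385 in the normoxia ovary library. The authors' deposited table gives it -2.00, and the ratio was 0.250 with a counting interval of 0.197 to 0.310. It was the listed ovary gene nearest the threshold of either sign, passing it by 0.0010 on the log2 scale. The next were Gm25287, classed as a microRNA, at -2.01 and, on the higher side, 9330159F19Rik at 2.01 in the authors' deposited table. Genes outside the threshold are not in the tables, so values just short of it cannot be given.

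Apol9b belongs to the apolipoprotein L family, whose Apol9 genes respond to interferon in mice. It had a term of 64 in the hypoxia ovary library and 269 in the normoxia ovary library. The authors' deposited table gives -2.14, and the ratio was 0.227 with a counting interval of 0.167 to 0.296. Apol9b lies on chromosome 15 from 77729039 to 77736382. Of the 50-base stretches of its longest transcript, 51.4% also stood in Apol9a, as did 34.9% of the 100-base stretches. Its reads can therefore be shared with Apol9a, and the effect of this on its value was not tested. Apol9a was not listed in either tissue, and Apol9b was the 1 listed gene of the 14 in the Apol list.

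Ifi206 and Ifi202b belong to the p200 family, proteins with a domain that binds DNA and a family that includes the DNA sensor Aim2. Ifi206 had a term of 29 in the hypoxia ovary library, against 122 in the normoxia ovary library. The authors' deposited table gives -2.14, and the ratio was 0.226 with a counting interval of 0.141 to 0.335, the widest of the 5 lower members. Of its 50-base stretches, 24.5% also stood in 3 other annotated genes, most often Ifi208, so its reads can be shared with relatives.

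Ifi202b encodes a p200 protein without the pyrin domain, known to bind DNA and to restrain Aim2 in mouse cells, and its level is known to differ between inbred strains. It had a term of 78 in the hypoxia ovary library and 11 in the normoxia ovary library. The authors' deposited table gives 2.76, a ratio of 6.75 with a counting interval of 3.78 to 15.9. The interval lies wholly above 1, while those of the 5 lower ovary members lie wholly below it. For terms of this size the cut at a ratio of 4 fixes that in advance, so it is no support for the directions. None of its 50-base stretches (0%) stood in another annotated gene. As listed, the direction differed within the ovary between members of 1 family, in the same pair of pooled libraries. This difference between Ifi202b and Ifi206 has no replicate check, and the strain of the mice is not given.

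**Figure D2:**
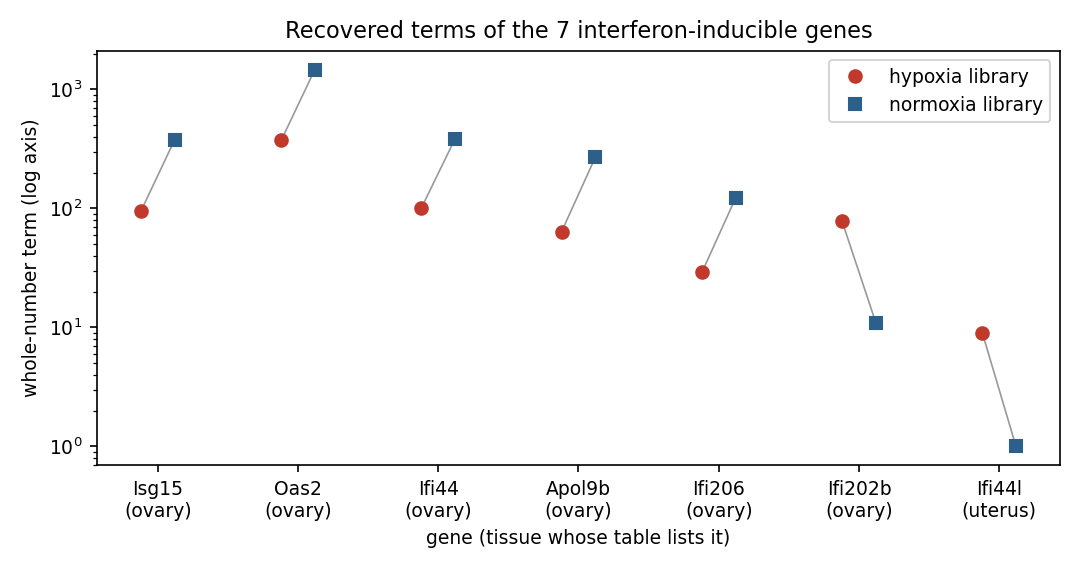
Recovered whole-number terms (y axis, log scale) of each member in the hypoxia library (circles) and the normoxia library (squares) of the tissue whose table lists it, 1 pooled library each. The 5 genes at the left are lower in the hypoxia ovary library, Ifi202b is higher there, and Ifi44l is higher in the hypoxia uterus library; heights are not comparable between genes, whose lengths differ.

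Ifi206 lies on chromosome 1 from 173468485 to 173491041 and Ifi202b from 173962568 to 173982744, both on the minus strand and 471.5 kb apart. The stretch from Aim2 to Ifi205 holds 12 annotated genes of the p200 list used here, which leaves out Mndal, a further family gene there that was not listed in either tissue. Of the 12, Ifi206 was listed as lower and Ifi202b as higher in the ovary. Between them lie 9 protein-coding genes, and none was listed in the ovary (0 genes). In addition, 1 p200 gene outside the 7 members was listed in the uterus. Ifi214, the next gene to Ifi206 at 28.7 kb, had a term of 1 in the hypoxia uterus library and 5 in the normoxia uterus library, and -2.33 in the authors' deposited table. Read as counts plus 1, these are 0 reads against 4, a count so small that its ratio interval reached 1.51 and included 1. The Ifi214 promoter window held the same letters as that of Ifi206, GAAATCGAAA, at 79 bases before the start. Neither Ifi206 nor Ifi202b was listed in the uterus, and Ifi214 was not listed in the ovary.

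**Figure D3:**
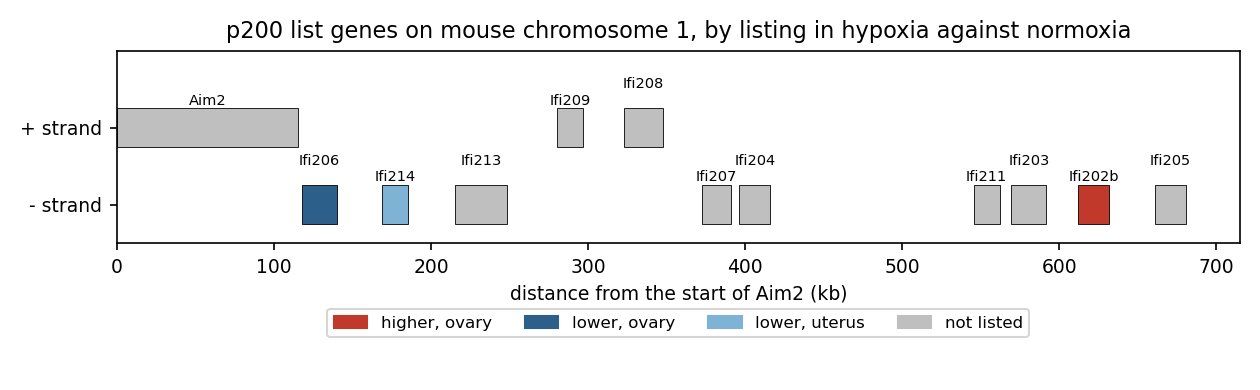
The 12 annotated genes of the p200 list (Mndal is not drawn) on mouse chromosome 1 by distance in kb from the start of Aim2 (x axis) and by strand (y axis), coloured by their listing in hypoxia against normoxia. Ifi202b (higher, ovary) and Ifi206 (lower, ovary) lie 471.5 kb apart, Ifi214 (lower, uterus) lies next to Ifi206, and the other 9 genes were not listed.

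In the uterus the 1 listed member was Ifi44l. It had a term of 9 in the hypoxia uterus library, against 1 in the normoxia uterus library, which would be 8 reads against 0 if the terms share no larger multiple. The authors' deposited table gives 3.16. Allowing for the counting error of both libraries, the lower end of the interval for the ratio was 1.70, or 1.24 with the terms themselves taken as counts, and the first interval had no upper end. The same ratio of 9 to 1 was listed for 13 uterus genes, Ifi44l among them. With a pseudocount of 5 in place of 1 the log2 value was 1.37, short of the threshold.

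Ifi44l lies on chromosome 3 from 151758737 to 151762892, and Ifi44 from 151730922 to 151749960. They are 8.8 kb apart on the same strand with no annotated gene between them, and they shared no 50-base stretch. Ifi44 was listed as lower in the ovary and not in the uterus, and Ifi44l as higher in the uterus and not in the ovary. A gene that is not listed has, by the stated threshold, a log2 fold change between -2 and 2 in that tissue if it was evaluated at all. The tables therefore do not show that either gene, or any of the 7, responded differently in the ovary and the uterus, and no test of that difference can be made from them.

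The 5 lower ovary members lay close together, between -2.14 and -2.00 in the authors' deposited table, with a median of -2.06. The median of all 421 lower ovary genes was -2.39. The threshold fixes one end of that range. Isg15, Oas2 and Ifi44 took ranks 412, 414 and 421 by size among the lower genes, and Apol9b and Ifi206 took 258 and 257. In 319 of the 421 lower genes a term was 1. Both terms were at least 29, the smallest term of the 5 members, in 25 lower ovary genes, of which 20 were protein coding. Of those 25 genes, 10 lay between -2.14 and the threshold, and the 5 members were among them. Ifi206 set both limits, so the place of the members among the 10 was fixed in advance. All 7 members had a counting interval that included the threshold ratio (4, or its inverse), so the terms do not fix on which side of it any of them lies.

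**Figure D4:**
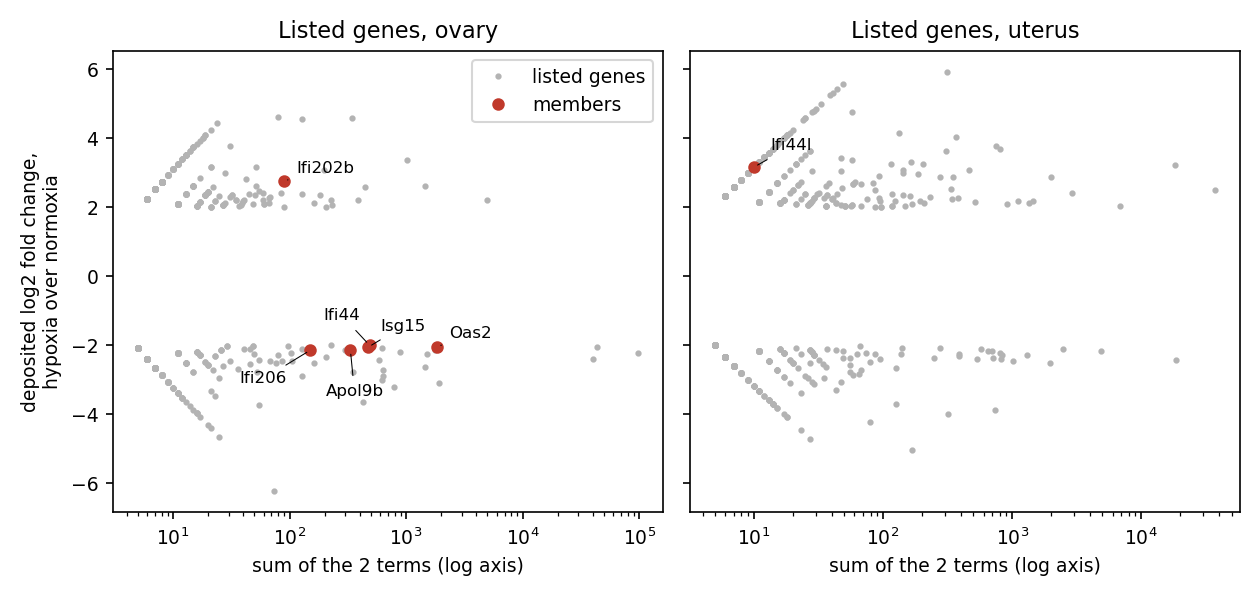
Deposited log2 fold change, hypoxia over normoxia (y axis), against the sum of the 2 recovered terms (x axis, log scale) for every listed gene of the ovary (left) and uterus (right), with the members in red. The 5 lower ovary members lie along the threshold at sums well above most listed genes, and Ifi44l lies on the line of uterus genes with a normoxia term of 1.

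Whether a member passed the threshold depended on how the ratio was formed. Taking the ratio of terms with no shared factor gave -1.99 for Isg15, -1.98 for Oas2 and -1.93 for Ifi44, all short of 2, while Apol9b and Ifi206 stayed past it at -2.07 each. That left 2 of the 5 lower members past the threshold. With a pseudocount of 5, Ifi44 alone fell short, at -1.96. Ifi202b had 2.38 with a pseudocount of 5 and 2.83 with no shared factor. Neither change could turn the direction of a ratio of this size.

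**Figure D5:**
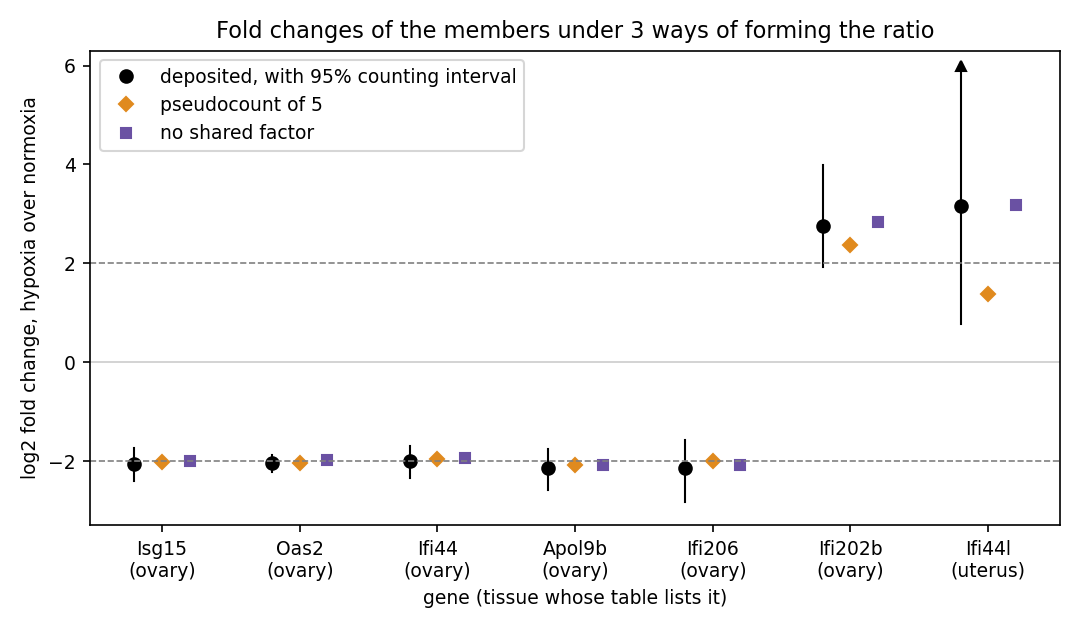
Log2 fold change, hypoxia over normoxia (y axis), of the 7 members as deposited with the 95% counting interval (circles and bars), with a pseudocount of 5 (diamonds) and with no shared factor (squares); dashed lines mark the threshold of 2 in each direction, and the arrow marks an interval with no upper end. The interval of each member crosses its dashed line.

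Of the 61 genes of the type I interferon response list, 5 were listed as lower and 1 as higher in the ovary, and 1 as higher in the uterus, all of them among the 7 members, which were chosen for being listed. The other 54 genes of that list were listed in neither tissue, among them the widely used markers Ifit1, Mx1, Usp18, Irf7 and Rsad2. The same held for the 40 interferon gamma response genes, which include the guanylate-binding proteins and the antigen-presentation genes. It also held for the 21 interferon genes, among them Ifne, an interferon known for its expression in the female reproductive tract, for the 17 receptor and signalling genes, such as Ifnar1 and Tyk2, and for the 15 annotated sensors of nucleic acids. In all, 137 annotated genes of these lists other than the members were listed in neither tissue (0 in the ovary and 0 in the uterus). Of all 55536 annotated genes, 1.54% were listed in the ovary and 1.63% in the uterus in either direction, so a list of this size would hold few listed genes at that share, and the short lists fewer than 1. That share is over all annotated genes, of which 22028 are protein coding, and was not worked out for protein-coding genes alone. Changes smaller than 4-fold in the genes of these lists cannot be seen in tables that start at that ratio.

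Markers of immune cells, which can carry interferon-inducible transcripts, are given for the same libraries, and their part in the values above was not tested. In the ovary none of the 14 macrophage, 9 plasmacytoid dendritic, 8 conventional dendritic, 16 T and NK and 13 B and plasma cell markers was listed. Of the 15 neutrophil markers, Trem1 was listed as higher in the ovary with terms of 10 and 1 and a value of 3.25 in the authors' deposited table. Immune genes outside these lists did appear, and those named in this paragraph were chosen after their values were seen. By transcript class, 13 immunoglobulin genes were listed in the ovary, 11 higher and 2 lower, among them the heavy chain gene Ighg3, with terms of 329 and 13 and a value of 4.59 per the authors' deposited table. The NK receptor genes Klrb1a and Klrc2 were listed as higher, with terms of 22 and 5 and of 9 and 2. Going the other way, Cd300ld3 and the T cell receptor gene Trbv3 were listed as lower, with terms of 3 and 17 and of 1 and 5. So were Nlrp12, with terms of 7 and 46, and Sirpb1a, with terms of 1 and 7. These genes are examples, and immune genes outside the lists, other than immunoglobulin genes, were not counted by direction. In the uterus, where Ifi44l was higher, 8 of the 15 neutrophil markers, 4 of the 13 B and plasma cell markers and 1 conventional dendritic marker were listed, all higher. That marker was the chemokine receptor gene Ccr7, at 2.67 on terms of 51 and 8. The neutrophil markers were S100a8, S100a9, Ltf, Lcn2, Cxcr2, Fpr2, Stfa2l1 and Trem1, and the B and plasma cell markers were Igha, Igkc, Iglc1 and Jchain. Which cells of the uterus carried these transcripts, Ltf and Lcn2 included, was not tested. The neutrophil values ran from 2.04 for S100a9 to 4.03 for Lcn2, and the B and plasma cell values from 2.05 for Igha to 3.06 for Iglc1, all in the authors' deposited table. Among the neutrophil markers, Fpr2 had terms of 5 and 1, Stfa2l1 of 8 and 1 and Trem1 of 19 and 2. The ratio interval of Fpr2 began at 0.657 and included 1. Cxcr2 had terms of 31 and 6, S100a9 of 95 and 23 and S100a8 of 193 and 39. Lcn2 had 344 and 21, and Ltf 16403 and 1740. No macrophage, plasmacytoid dendritic or T and NK marker of the lists was listed in the uterus. Outside the lists, the T cell genes Themis and Trat1 were listed as higher, with terms of 17 and 4 and of 11 and 2, and the granzyme genes Gzmd and Gzme as lower, with terms of 40 and 207 and of 7 and 30. By transcript class, 50 immunoglobulin genes were higher and 2 lower in the uterus. The annotated immunoglobulin genes were not counted. The immunoglobulin counts of either tissue were therefore not set against the share of all annotated genes listed, 1.54% in the ovary and 1.63% in the uterus. Marker levels themselves are not in the tables, so the labelled tissues could not be checked against their defining markers.

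The genes nearest to each member in log2 fold change and in the log2 sum of its terms, by Euclidean distance, were sought among the protein-coding genes of the same table with the 7 members left out. For Oas2 it was the retinol dehydrogenase gene Rdh1, with terms of 343 and 1430 and -2.13 in the authors' deposited table. For both Isg15 and Ifi44 it was Sv2c, a synaptic vesicle protein gene, at -2.08 on terms of 123 and 496. For Apol9b it was the transcription factor gene Nfe2, at -2.14 on terms of 58 and 243. For Ifi206 it was the keratin gene Krt1, at -2.51 on terms of 25 and 136. For Ifi202b it was 9330159F19Rik, at 2.01 on terms of 72 and 17, and for Ifi44l 5 uterus genes, Clec18a among them, shared its exact ratio. This likeness rests on 1 ratio in 1 tissue.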

How the data were processed

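RNA was sequenced from 4 pooled libraries. Per the labels' protocols, polyadenylated RNA was selected and libraries kept strand. The tools HTSeq 0.9.1, HISAT2 2.2.1 and DESeq2 2.11.40.7 and the build mm10 are named in the submitters' processing notes, without roles; strand use in counting was not given in the sources used. The authors deposited, per the file headers, a log2 fold change per listed gene, without counts or p-values, so the depth is unknown. The members, the 14 gene lists and the alternatives were chosen with earlier results of these data known; 2 list genes are not reported here and were left out of the counts.

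Members were matched by symbol and chromosome to GENCODE M21 (GRCm38, the assembly of mm10), which served as the background of 55536 genes, wider than the genes evaluated. The shared factor was found by reading the commonest negative value of a table as 1 to 4. Terms came from continued fractions at a relative tolerance of 5e-14, a step tested on simulated data. Those data were built as counts plus 1 with the same factor. They check the arithmetic alone, and cannot check the reading as counts plus 1 or as 1 to 4. From the terms less 1, exact Clopper-Pearson intervals (95%) were formed, which hold counting error alone. Promoter sequences are from RefSeq, GRCm38.p6. Stretches of 50 and 100 bases of each longest transcript were searched in the sense strand of all GENCODE transcripts of other genes. The genes named by rule were all members, every listed gene of the lists, each member's nearest gene and genes just inside the threshold. Other genes of the lists are named as examples of genes not listed. The immune genes outside the lists, and Ubd, were chosen after their values were seen. Mndal is named for its place among the p200 genes. Software was SciPy 1.17.1, matplotlib 3.10.9, pandas 2.3.3, NumPy 2.4.6 and Python 3.11.15.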

Additional observations from a re-analysis of the deposited data

How the results depend on the processing

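The alternatives could change whether a value passed the threshold but not its sign. With a threshold of 2.5 on the log2 scale, the members lower in the ovary, the type I interferon list lower in the ovary, and the p200 family lower in the ovary and lower in the uterus each counted 0. With no shared factor, an alternative chosen after seeing the data, 2 of the 5 lower ovary members passed the threshold. With a pseudocount of 5, 0 members passed the threshold as higher in the uterus, because Ifi44l rests on a term of 1. With the terms themselves as counts the ratio interval of Ifi44l was 1.24 to 393. The promoter motif was found in 4 members with the looser form. It was found in 3 with the stricter form, TTTC, any 2 bases and TTTCC on either strand, which 1.11% of genes held. No paired analysis was possible because each group is 1 pooled library. The unknown depth and the cut at a ratio of 4 limit what the tables can show: a gene that is not listed may still differ between hypoxia and normoxia.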
